A study of Homo sapiens with 9 samples.

Results

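EGR1, a zinc-finger transcription factor (TF), was overexpressed in 293T cells, a human embryonic kidney line, from a lentiviral EGFP vector with an EF1A promoter that was transfected, and total RNA was sequenced in strand-marking libraries after 48 hours. The EGR1 library (labelled hEGR1) was set against a control library (labelled blank) that carried no TF insert, with 1 library per condition, so no difference below has a replicate check. The share of cells that took up the vector is not known here, and each library pools the whole culture. The same table held 7 further libraries of 293T cells, each with another human TF (NRF1, E2F4, ZBTB7A, HOXA11, RORA, TFCP2 or NKX2-8), and these gave a range of variation that is not tied to EGR1. A gene was counted as changed when its level differed at least 2-fold between the EGR1 and control libraries and reached 1 CPM (counts scaled to library size, after TMM normalization) in the higher one. It was counted as particular to the EGR1 library when its CPM also lay outside the range of all 8 other libraries. Of 57163 genes in the table, 14262 were measured by this threshold, 396 changed, and 188 of these lay outside the range.

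EGR1 is an immediate early gene: growth factors, depolarization and stress induce it within minutes through ERK signalling and serum response elements. Its protein binds GC-rich sites in promoters through Cys2-His2 zinc fingers, and it shares this site with EGR2, EGR3 and EGR4. NAB1 and NAB2 are co-repressors of EGR proteins, and NAB2 is itself an EGR1 target that closes a negative feedback loop. In neurons EGR1 is used as a marker of activity and is known to act on ARC, a regulator of glutamate receptor trafficking at synapses.

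EGR1 (GRCh37 chr5:137801179-137805004, + strand) checked the label. It had 6353 CPM in the EGR1 library, against 24.7 CPM (NRF1), 19.98 CPM (E2F4), 25.3 CPM (ZBTB7A), 25.9 CPM (HOXA11), 22 CPM (RORA), 22.2 CPM (TFCP2), 26.3 CPM (NKX2-8) in the other TF libraries and 18.7 CPM in the control library. All 8 other libraries lay far below the EGR1 library and close to each other. These reads cannot be divided between the insert and the endogenous gene, so EGR1 was left out of all counts below. The total counts of the 9 libraries were 14177970 to 18915400, with 15925605 in the EGR1 library and 18915400 in the control library, so 1 read in the EGR1 library was 0.0624 CPM. The EGR1 library had counts for 26296 genes, against 26166 in the NRF1 library and 23344 to 24593 in the rest, and 1536 genes had counts in it alone. The part of this wider detection in the rises below was not tested. The control library stood apart by TFCP2, the only insert at a high level outside its own library, with 43.9 CPM in the EGR1 library and 533 CPM in the control library. All 9 markers listed for 293T cells, such as VIM, NEFM and PAX2, were measured and 0 changed. Of all mRNAs measured, 2.12% rose and 0.149% fell, so few or no changes go with so short a list. By the range alone, 5 of these 9 markers lay above the 8 other libraries and 0 below, against 7.36% and 8.95% of all genes. Their summed level was 2089 CPM in the EGR1 library, 1757 to 2147 CPM in the other TF libraries and 2308 CPM in the control library. Of 33 markers of fibroblasts, leukocytes, keratinocytes and hepatocytes, 5 were measured and 0 changed. In the EGR1 library 1 of 8 fibroblast, 1 of 8 leukocyte, 4 of 9 keratinocyte and 3 of 7 hepatocyte markers were at 0 counts. The fibroblast markers summed to 45.1 CPM in the EGR1 library, 28.6 to 39.5 CPM in the other TF libraries and 33.1 CPM in the control library. The hepatocyte markers summed to 2.06 CPM, 0.535 to 2.21 CPM and 0.544 CPM, and the leukocyte markers to 3.25 CPM, 2.46 to 5.18 CPM and 3.15 CPM.

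The EGR1 library differed from the control library mostly by rises. Against the control library, 356 genes rose (2.5% of 14262) and 40 fell (0.28%), and the median log2 fold change (log2FC) of all genes measured was -0.02. Of these, 168 rose and lay above all 8 other libraries (1.18%), and 20 fell and lay below all of them (0.14%). Among 12729 mRNAs, 270 rose (2.12%), 19 fell (0.149%) and 118 rose and lay above the range (0.927%). As background, any 1 of 9 libraries is the highest for some genes. The EGR1 library was the highest at 1136 of 15437 genes that reached 1 CPM in some library (7.36%) and the lowest at 1382 (8.95%), whereas the other libraries were each the highest at 1037 to 2951 genes. It exceeded the next library at least 2-fold at 72 genes, against 401 genes for NRF1, 134 for E2F4, 32 for NKX2-8, 1 to 10 for the other 4 TFs and 0 for the control.

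**Figure D1:**
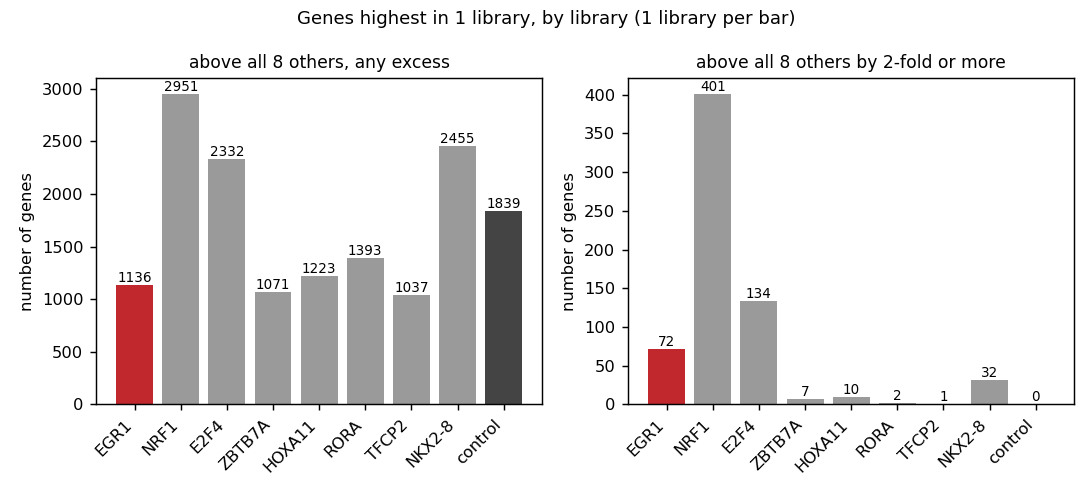
Number of genes (vertical) at which each of the 9 libraries (horizontal) was above all 8 others, by any excess on the left and by at least 2-fold on the right. The EGR1 library was above all others by at least 2-fold at 72 genes, fewer than the NRF1 and E2F4 libraries and more than the other 6.

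Many of the 168 genes were low. Their median count was 32 in the EGR1 library, 85 were under 2 CPM in it, 70 were under 1 CPM in all 8 other libraries and 24 had no count in the control library. At 97 of them the EGR1 library was at least 1.5-fold above the next library, and at 82 the 95% interval of that ratio, which covers counting error only, excluded 1. At 5 CPM or more, 43 genes rose and lay above the range, 37 of them mRNAs and 6 lncRNAs, and 0 fell and lay below it. Because the control library stood apart, the EGR1 library was also set against the average of the other TF libraries, and 115 of the 168 genes were still at least 2-fold higher.

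**Figure D2:**
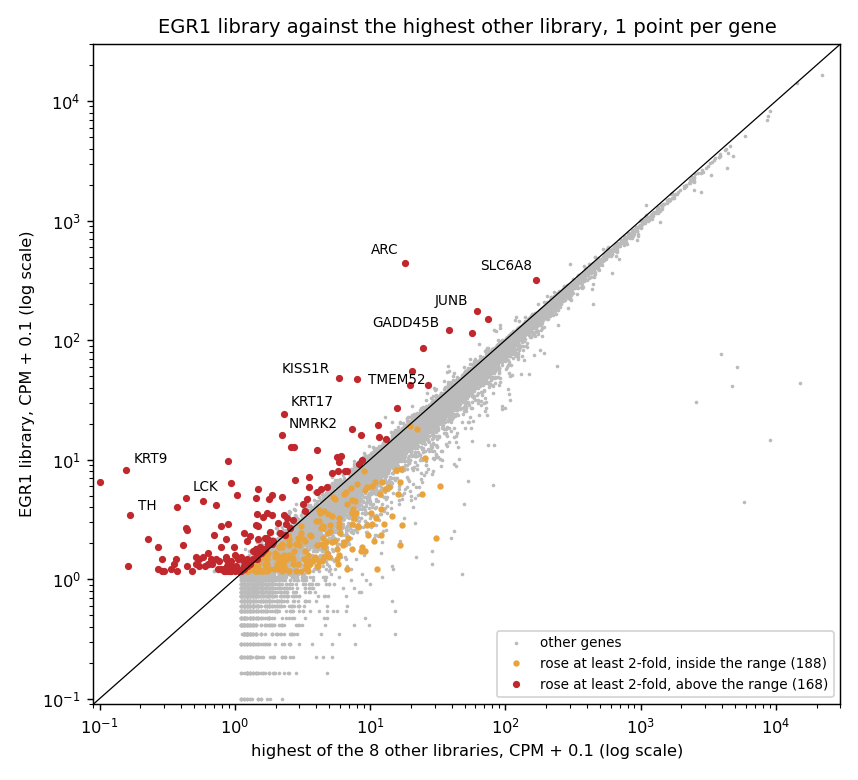
CPM of each gene in the EGR1 library (vertical) against the highest of the 8 other libraries (horizontal), both as CPM + 0.1 on log scales. The line marks equal levels. Red points are the 168 genes that rose and lay above the range, and orange points the 188 that rose inside it. ARC lies farthest above the line among genes over 100 CPM.

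ARC had the largest rise among genes over 100 CPM in the EGR1 library. It had 440.0 CPM in the EGR1 library, against 12.8 CPM (NRF1), 12 CPM (E2F4), 14.3 CPM (ZBTB7A), 15.3 CPM (HOXA11), 11.7 CPM (RORA), 12 CPM (TFCP2), 18 CPM (NKX2-8) in the other TF libraries and 12.4 CPM in the control library. The 8 other libraries fell in a narrow band, and the EGR1 library was 35.5-fold (31.1 to 40.7) above the control library and 24.4 times (21.6 to 27.6) the NKX2-8 library, the next highest (95% counting intervals). In a list of the other EGR genes, the NAB co-repressors and ARC, 5 of 6 were measured and ARC alone rose (2.12% of all mRNAs did). No EGR or NAB gene on it rose at least 2-fold. NAB2 had 54.6 CPM in the EGR1 library, against 33.3 to 38.2 CPM (median 36.9) in the 7 other TF libraries and 35.9 CPM in the control library. It lay above all others, but its 1.52-fold (1.37 to 1.68) difference did not reach 2-fold. NAB1 (log2FC 0.05), EGR2 (0.43) and EGR3 (0.59) did not change and lay inside the range, and EGR4 was too low to be measured.

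EGR1 is known to bind GCGTGGGCG and GCGGGGGCG. The promoters of NAB2 and of GADD45B, described later, are shown as examples that hold the second of these sites. Each window runs from 250 bases before to 50 bases after the start of the Ensembl canonical transcript (GRCh37, GENCODE v44lift37, on the gene's strand), and capitals mark a match to GCGNGGGCG, which includes both of these sites, on either strand. No other motif was searched.
NAB2, chr12:57482647-57482946, + strand: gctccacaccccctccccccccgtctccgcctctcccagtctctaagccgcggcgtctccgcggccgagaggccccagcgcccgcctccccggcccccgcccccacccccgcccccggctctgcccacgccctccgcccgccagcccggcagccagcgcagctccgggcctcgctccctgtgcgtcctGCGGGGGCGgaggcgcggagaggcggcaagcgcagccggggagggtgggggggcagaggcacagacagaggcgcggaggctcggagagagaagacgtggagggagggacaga
GADD45B, chr19:2475875-2476174, + strand: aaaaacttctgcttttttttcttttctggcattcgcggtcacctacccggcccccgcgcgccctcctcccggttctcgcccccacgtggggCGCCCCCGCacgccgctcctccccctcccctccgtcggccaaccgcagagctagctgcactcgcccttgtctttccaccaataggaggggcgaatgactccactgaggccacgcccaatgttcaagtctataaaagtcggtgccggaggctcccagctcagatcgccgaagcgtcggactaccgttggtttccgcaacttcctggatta
NAB2 and GADD45B each had 1 match, both of the form GCGGGGGCG (in GADD45B on the strand opposite to the gene), ending 54 and 151 bases before the start. A match describes the letters and not a bound site. These windows do not stand for the rises. Of the 14 protein-coding genes with the largest excess over the next library, 3 had a match. Among protein-coding genes that rose and lay above the range the share was 16.2%, against 18.9% of all measured.

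Among the 14 protein-coding genes with the largest excess over the next library, several were nearly silent elsewhere. Epithelial keratins led these after ARC. KRT9 (chr17), a keratin of palm and sole epidermis, had 129 counts and 8.06 CPM in the EGR1 library, against 0 counts in 6 other TF libraries, 1 count in the TFCP2 library and 0 in the control library. It was at least 49.4-fold higher than a floor of 3 counts in the control library. KRT17 (chr17:39775689-39781094, - strand), a keratin of stressed and basal epithelium, had 24.2 CPM in the EGR1 library, against 0.441 CPM (NRF1), 0.672 CPM (E2F4), 0.691 CPM (ZBTB7A), 2.2 CPM (HOXA11), 1.09 CPM (RORA), 0.458 CPM (TFCP2), 1.86 CPM (NKX2-8) in the other TF libraries and 0.326 CPM in the control library. It was 11 times (7.83 to 15.8) the HOXA11 library, the next highest. KRT17 has near-identical pseudogene copies, so its counts are uncertain. Of 34 keratins listed, 5 were measured and these 2 rose (2.12% of all mRNAs did). With 0 and 0.326 CPM in the control library, KRT9 and KRT17 were measured only through the EGR1 library, which raises this share. KRT8, a simple-epithelium keratin, had 53.4 CPM in the EGR1 library, against 25.5 to 41.4 CPM (median 34.2) in the other TF libraries and 29.8 CPM in the control, which was above the range but under 2-fold. KRT14, a basal keratinocyte keratin that did not reach 1 CPM, had 15 counts in the EGR1 library, 0 to 1 in each other TF library and 0 in the control library. The summed level of 9 keratinocyte markers was 14.9 CPM in the EGR1 library, 13.0 to 25.5 CPM in the other TF libraries and 16.1 CPM in the control library.

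KISS1R, the kisspeptin receptor, had 47.8 CPM in the EGR1 library, against 5.8 CPM (NRF1), 3.41 CPM (E2F4), 4.84 CPM (ZBTB7A), 4.58 CPM (HOXA11), 2.48 CPM (RORA), 2.29 CPM (TFCP2), 5.57 CPM (NKX2-8) in the other TF libraries and 2.01 CPM in the control library. It was 23.7-fold (17.1 to 34) higher than in the control library and 8.23 times (6.63 to 10.3) the NRF1 library, the next highest. TMEM52, which encodes a transmembrane protein, had 47.5 CPM in the EGR1 library, against 4.25 to 7.88 CPM (median 6.89) in the 7 other TF libraries and 6.58 CPM in the control library. COL11A2, a collagen chain of cartilage, had 12.6 CPM in the EGR1 library, against 1.59 to 2.5 CPM (median 1.85) in the 7 other TF libraries and 1.9 CPM in the control library. TH, which encodes tyrosine hydroxylase, the rate-limiting enzyme of catecholamine synthesis, had 53 counts in the EGR1 library, 0 to 1 in each other TF library and 0 in the control library, and was at least 20.3-fold higher than the control floor. CPNE6, a calcium-dependent membrane-binding protein of neurons, had 2.06 CPM in the EGR1 library, against 0 to 0.126 CPM (median 0) in the 7 other TF libraries and 0 CPM in the control library and was at least 12.6-fold higher than that floor. For these 5 genes the EGR1 library lay clear of all 8 others, and for KISS1R the control library was the lowest of the 9.

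**Figure D3:**
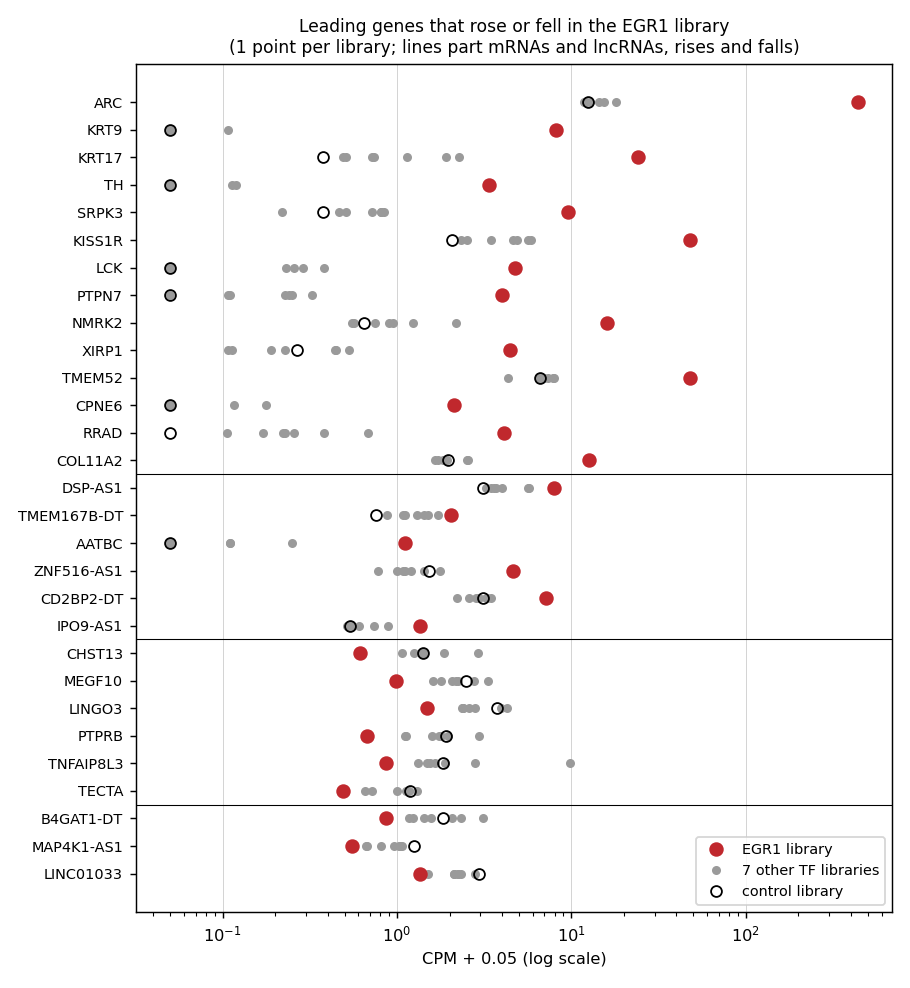
CPM + 0.05 (log scale) of the leading mRNAs and lncRNAs that rose or fell, with 1 point per library. The EGR1 points of the 14 leading mRNAs lie well to the right of the other 8 libraries, from 2.06 CPM for CPNE6 to 440.0 CPM for ARC, whereas those of the falls lie close to the next library.

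A further group encoded proteins known from striated muscle. This list of 81 genes was chosen after values had been seen, so its counts are a description. Of 29 measured, 14 rose and 10 of these lay above the range, whereas 2.12% of all mRNAs measured rose and 0.927% rose above the range. The median log2FC of the list was 0.82 over the control library, against -0.03 for all mRNAs measured, and 0.21 over the average of the other TF libraries. SRPK3, a muscle SR-protein kinase, had 9.55 CPM in the EGR1 library, against 0.168 to 0.796 CPM (median 0.664) in the other TF libraries and 0.326 CPM in the control. NMRK2, a nicotinamide riboside kinase of muscle, had 15.9 CPM in the EGR1 library, against 0.504 to 2.12 CPM (median 0.846) in the other TF libraries and 0.598 CPM in the control. XIRP1, an actin-binding protein of cell junctions in heart and muscle, had 4.37 CPM in the EGR1 library, against 0.0572 to 0.483 CPM (median 0.178) in the other TF libraries and 0.217 CPM in the control. No other library exceeded 2.12 CPM for any of these 3 genes. RRAD, a small GTPase that inhibits voltage-gated calcium channels, had 4.06 CPM in the EGR1 library, against 0.056 to 0.631 CPM (median 0.178) in the other TF libraries and 0 CPM in the control, and was at least 24.9-fold higher than the control floor. MYBPC2, a fast-muscle myosin-binding protein, was 23-fold (8.63 to 86.4) higher and FABP3, the heart fatty acid carrier, 12.9-fold (6.28 to 30.8) higher than in the control library. MYH6, TNNC1, ATP1B4 and TRARG1 were at 1.06 to 1.75 CPM in the EGR1 library, on 17 to 28 counts each. The excess of TNNC1 over the NRF1 library was within counting error. MYH6 is nearly identical to MYH7 in sequence, so its counts are uncertain. The summed level of the list, 270.1 CPM in the EGR1 library, 212 to 252 CPM in the other TF libraries and 223 CPM in the control library, varied much less than these members.

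Lymphocyte signalling genes, also listed after their values had been seen, gave 5 rises above the range among 14 measured of 46 (0.927% of all mRNAs did so). Their median log2FC was 0.17 over the control library and 0.09 over the average of the other TF libraries. LCK, the kinase that starts T cell receptor signalling, had 4.68 CPM in the EGR1 library, against 0 to 0.332 CPM (median 0.181) in the other TF libraries and 0 CPM in the control. PTPN7, a tyrosine phosphatase of blood cells, had 3.93 CPM in the EGR1 library, against 0 to 0.276 CPM (median 0.178) in the other TF libraries and 0 CPM in the control. No other library exceeded 0.332 CPM for these genes. TNFRSF8 and IL2RB, a TNF receptor family member and an interleukin-2 receptor chain, were at 1.12 and 1.19 CPM in the EGR1 library and at 0 counts in the control library. IL2RB had 8 counts in the NRF1 library, and its excess over that library was within counting error. PTPRC, the common leukocyte antigen, had 1 count in the EGR1 library.

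Of 48 genes described as EGR1 targets in the literature, 35 were measured, 7 rose (against 2.12% of all mRNAs measured) and 3 of these lay above the range (against 0.927%). Of these 3, TH and PNMT were under 1 CPM in the control library and were measured only through the EGR1 library, which raises the shares. The median log2FC of the 35 was 0.17 over the control library and 0.04 over the average of the other TF libraries. GADD45B, a stress-induced regulator of MAP kinases and DNA demethylation, had 120.2 CPM in the EGR1 library, against 26.4 CPM (NRF1), 24 CPM (E2F4), 24.9 CPM (ZBTB7A), 38 CPM (HOXA11), 24.8 CPM (RORA), 22.2 CPM (TFCP2), 24.3 CPM (NKX2-8) in the other TF libraries and 23.8 CPM in the control library. It was 5.05-fold (4.55 to 5.61) higher than in the control library and 3.16 times (2.89 to 3.46) the HOXA11 library. TH is given above. PNMT, which makes adrenaline, had 1.56 CPM in the EGR1 library, against 0.785 to 1.32 CPM (median 0.995) in the other TF libraries and 0.707 CPM in the control, an excess within counting error of the NRF1 library. PDGFB, IGF2, TBX21 and SYN1 rose with log2FC of 1.52, 1.04, 1.61 and 1.44 but lay inside the range. IGF2 overlaps a readthrough transcript, so its counts are uncertain. The remaining 28 of the 35 did not pass the 2-fold threshold.

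Of 29 immediate early genes measured, JUNB alone rose, which is near the 2.12% of all mRNAs that rose. Of the 29, 10 lay above the range and 2 below it, against 7.36% and 8.95% of all genes. JUNB, a subunit of AP-1, had 176 CPM in the EGR1 library, against 48.5 CPM (NRF1), 48.1 CPM (E2F4), 56.8 CPM (ZBTB7A), 61.4 CPM (HOXA11), 50.3 CPM (RORA), 50.4 CPM (TFCP2), 51.1 CPM (NKX2-8) in the other TF libraries and 48.1 CPM in the control library and was 3.67-fold (3.4 to 3.96) higher than in the control library. ZFP36, an mRNA decay factor, was just short of 2-fold, with 8.93 CPM in the EGR1 library, against 4.08 to 7.73 CPM (median 6.49) in the other TF libraries and 4.46 CPM in the control. FOS, with a log2FC of -0.06, lay inside the range. Of 23 genes of ERK feedback, all measured, SPRY4 alone rose (2.12% of all mRNAs did), but lay inside the range, with 1.31 CPM in the EGR1 library, against 0.531 to 2.21 CPM (median 0.63) in the other TF libraries and 0.489 CPM in the control. CDKN1C, the cyclin-dependent kinase inhibitor p57, had 54.7 CPM in the EGR1 library, against 9.79 to 20.3 CPM (median 11.8) in the 7 other TF libraries and 10.7 CPM in the control library and was 5.13-fold (4.39 to 6.02) higher. It was the only 1 of 47 cell cycle genes that changed, a share near the 2.12% of all mRNAs that rose, and their median log2FC was -0.04.

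Neuronal genes showed rises both inside and outside the range. CPLX2, SCRT1, ADRA2A and KCNA1, given below, were under 1 CPM in the control library and were measured only through the EGR1 library. That rule raises the shares of their lists. Of 34 neuronal structure and synapse genes measured, 9 rose and 3 of these lay above the range, against 2.12% and 0.927% of all mRNAs. VGF, a precursor of neuropeptides that neurotrophins induce, had 42 CPM in the EGR1 library, against 10.5 CPM (NRF1), 10.3 CPM (E2F4), 5.46 CPM (ZBTB7A), 17.5 CPM (HOXA11), 3.93 CPM (RORA), 4.75 CPM (TFCP2), 26.6 CPM (NKX2-8) in the other TF libraries and 6.96 CPM in the control library. The NKX2-8 library was next to it, at a ratio of 1.58 times (1.39 to 1.79). CPLX2, which regulates synaptic vesicle fusion, had 3.37 CPM in the EGR1 library, against 0.0572 to 1.8 CPM (median 0.332) in the other TF libraries and 0.109 CPM in the control. CHGA, a granin of secretory granules, had 5.62 CPM in the EGR1 library, against 1.39 to 4.22 CPM (median 1.93) in the other TF libraries and 1.41 CPM in the control. Its excess over the NRF1 library was within counting error. SCRT1, a neuronal transcriptional repressor, had 10.5 CPM in the EGR1 library, against 0.82 CPM (NRF1), 3.08 CPM (E2F4), 5.6 CPM (ZBTB7A), 0.357 CPM (HOXA11), 0.242 CPM (RORA), 0.229 CPM (TFCP2), 1.59 CPM (NKX2-8) in the other TF libraries and 0.109 CPM in the control library. The ZBTB7A and E2F4 libraries were also well above the control. It was the only 1 of 13 neuronal regulators that rose (2.12% of all mRNAs did). Of 24 receptors for peptides and amines, 6 rose and 2 of these, KISS1R and ADRA2A, lay above the range, against 2.12% and 0.927% of all mRNAs. ADRA2A, an alpha-2 adrenergic receptor, had 3.18 CPM in the EGR1 library, against 0 to 1.51 CPM (median 0.112) in the other TF libraries and 0 CPM in the control. The median log2FC of this list was 0.32 over the control library but -0.17 over the average of the other TF libraries. Of 37 voltage-gated channel genes, 6 rose and 1 fell, against 2.12% and 0.149% of all mRNAs, and their median log2FC was 0.24 over the control library but -0.14 over the average of the other TF libraries. KCNA1, a potassium channel, had 5.0 CPM in the EGR1 library, against 0.181 to 1.77 CPM (median 0.265) in the other TF libraries and 0.544 CPM in the control, whereas SCN2B, a sodium channel subunit, fell to 0.312 CPM in the EGR1 library, against 0.448 to 0.892 CPM (median 0.515) in the other TF libraries and 1.14 CPM in the control, on 5 counts.

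Among secreted factors, 7 of 32 rose and 3 of these lay above the range, against 2.12% and 0.927% of all mRNAs. Their median log2FC was 0.18 over the control library and 0.01 over the average of the other TF libraries. GDF15, a stress-induced TGF-β family cytokine, had 16 CPM in the EGR1 library, against 3.04 to 8.47 CPM (median 5.35) in the 7 other TF libraries and 2.94 CPM in the control library. FGF19 and FGF11 had 2.69 and 1.06 CPM in the EGR1 library, against 0.924 and 0.381 CPM in the control library. The other TF libraries had 0.829 to 1.39 CPM for FGF19 and 0.286 to 0.833 CPM for FGF11. The excess of FGF11 over the HOXA11 library was within counting error. Genes of cholesterol and fatty acid synthesis (22 measured) and interferon genes (10 measured) had 0 changes. That is near the shares of all mRNAs, of which 2.12% rose and 0.149% fell. Their median log2FC was -0.10 and 0.02 over the control library, and 0.02 and -0.16 over the average of the other TF libraries. Heat shock and unfolded protein genes had 1 rise in 20 (2.12% of all mRNAs rose), HSPA6, which has close paralogs and was highest in the HOXA11 library. HSPA6 had 2.12 CPM in the EGR1 library, against 0.362 to 30.8 CPM (median 1.4) in the other TF libraries and 0.652 CPM in the control. Of 32 p53 and apoptosis genes, 2 rose (2.12% of all mRNAs did), and GADD45B was the member above the range. Of 30 CLB_TFs measured (conserved lncRNA-binding TFs, a class of the study that includes EGR1), KLF14 alone rose, inside the range, a share near the 2.12% of all mRNAs.

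**Figure D4:**
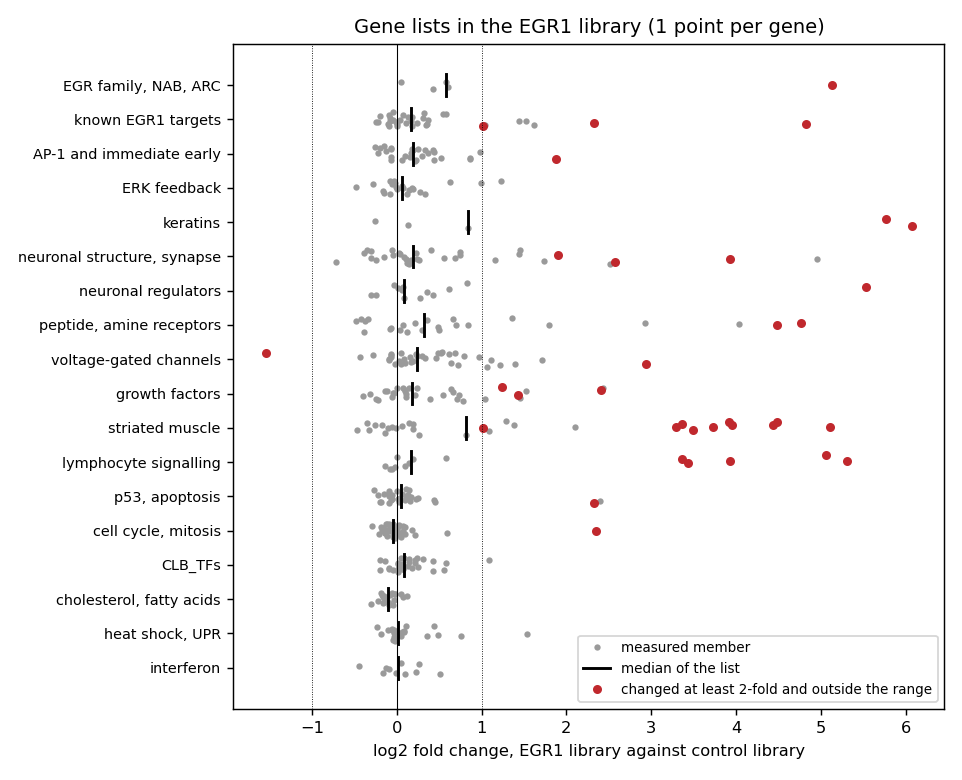
Log2FC of the EGR1 library over the control library for every measured member of each gene list, 1 point per gene, with the list's median. Changed genes that lie outside the range of the 8 other libraries are marked. The medians of keratins, striated muscle and the EGR, NAB and ARC list are 0.84, 0.82 and 0.59, and over the average of the other TF libraries they are 0.73, 0.21 and 0.30. The marked keratin and striated muscle genes were measured only through the EGR1 library, which raises the medians of these lists.

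The other 188 rises were shared, in that at least 1 other library was as high. All these comparisons use the same control library, so CPM was compared directly between libraries. The NRF1 library reached the EGR1 level at 147 of the 188 (78.2%) and was the only one to do so at 65. The counts were 57 for E2F4, 53 for ZBTB7A, 43 for NKX2-8 and 7 to 13 for HOXA11, TFCP2 and RORA. How often each library reached the EGR1 level over all genes was not counted. Of 15437 genes, the NRF1 library was the highest of the 9 at 19.1%, NKX2-8 at 15.9%, E2F4 at 15.1% and ZBTB7A at 6.94%. NEFH, a neurofilament subunit, had 5.31 CPM in the EGR1 library, against 6.49 CPM (NRF1), 1.51 CPM (E2F4), 0.622 CPM (ZBTB7A), 1.67 CPM (HOXA11), 0.0604 CPM (RORA), 0.229 CPM (TFCP2), 1.19 CPM (NKX2-8) in the other TF libraries and 0.0544 CPM in the control library. IGSF22 had 2.06 CPM in the EGR1 library, against 0.115 to 2.9 CPM (median 0.242) in the other TF libraries and 0 CPM in the control. For both, the NRF1 library was the only one above the EGR1 library. WNT7A, a secreted Wnt ligand, had 2.75 CPM in the EGR1 library, against 0.0604 to 4.93 CPM (median 0.773) in the other TF libraries and 0.0544 CPM in the control, with the maximum in the E2F4 library. HRH3, a histamine receptor, had 2.75 CPM in the EGR1 library, against 0.302 to 17 CPM (median 0.595) in the other TF libraries and 0.0544 CPM in the control, also with the maximum in the E2F4 library. SHH, the Hedgehog ligand, had 3.25 CPM in the EGR1 library, against 0.115 to 5.11 CPM (median 0.199) in the other TF libraries and 0.109 CPM in the control. The control library was the lowest, or tied for the lowest, at 97 of the 188 and at 68 of the 168 above the range, against 1036 of the 14262 genes measured. Both sets were picked as at least 2-fold above the control library, so a low control level in them follows in part from that rule.

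**Figure D5:**
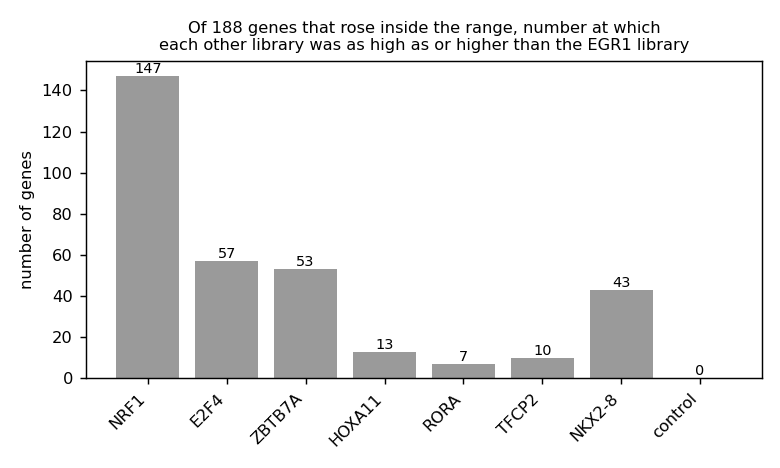
Number of the 188 rises inside the range at which each other library was at least as high as the EGR1 library (vertical), with 1 bar per library. The NRF1 library reached 147. The control library is at 0 because every gene shown rose at least 2-fold over it.

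Falls were fewer than rises and lay at low counts. Of the 40, 1 was TFCP2, the gene that was high in the control library, and 20 lay below the range, with a median of 9.5 counts in the EGR1 library. At 7 of the 20 the next lowest library was at least 1.5-fold higher, and at 0 did the counting interval of that ratio exclude 1. MEGF10, an engulfment receptor, had 0.937 CPM in the EGR1 library, against 1.57 to 3.28 CPM (median 2.11) in the other TF libraries and 2.45 CPM in the control. LINGO3 had 1.44 CPM in the EGR1 library, against 2.3 to 4.22 CPM (median 2.52) in the other TF libraries and 3.7 CPM in the control. PTPRB, an endothelial tyrosine phosphatase, had 0.624 CPM in the EGR1 library, against 1.06 to 2.9 CPM (median 1.69) in the other TF libraries and 1.85 CPM in the control. CHST13, a chondroitin sulfotransferase, TNFAIP8L3 and TECTA, a tectorial membrane protein, were at 0.562, 0.812 and 0.437 CPM in the EGR1 library, against 1.36, 1.79 and 1.14 CPM in the control library. In bulk RNA, fewer cells with a transcript and less of it per cell cannot be told apart, in either direction.

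The study used this overexpression to ask how far a CLB_TF shifts conserved against non-conserved lncRNAs. It adjusted the change of each lncRNA for abundance with a linear model and reported larger changes for conserved lncRNAs. The values below are not adjusted, so they are an unlike measure. Of 1451 lncRNAs measured, 84 rose (5.79%) and 21 fell, and 49 rose and lay above the range. Among 233 conserved lncRNAs, 10 rose (4.29%), 2 fell and 3 rose above the range. Among 1218 non-conserved lncRNAs, 74 rose (6.08%), 19 fell and 46 rose above the range. The median absolute log2FC was 0.23 for conserved and 0.29 for non-conserved lncRNAs, while the median level in the EGR1 library was 2.62 CPM for conserved and 2.0 CPM for non-conserved ones. The part of level in this difference was not tested. LncRNAs that overlap or lie antisense to another gene are uncertain, since the sources used here do not say whether counting used strand.

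Of the 3 conserved lncRNAs that rose above the range, DSP-AS1 and TMEM167B-DT had a symbol. DSP-AS1 had 7.93 CPM in the EGR1 library, against 3.19 to 5.67 CPM (median 3.62) in the 7 other TF libraries and 3.04 CPM in the control library. TMEM167B-DT had 2.0 CPM in the EGR1 library, against 0.82 to 1.66 CPM (median 1.26) in the other TF libraries and 0.707 CPM in the control. The excess of TMEM167B-DT over the next library was within counting error. Among non-conserved lncRNAs, ZNF516-AS1 had 4.56 CPM in the EGR1 library, against 0.728 to 1.7 CPM (median 1.06) in the 7 other TF libraries and 1.47 CPM in the control library and was 2.68 times (1.7 to 4.33) the next library. CD2BP2-DT (chr16:30366762-30368425, + strand) had 7.06 CPM in the EGR1 library, against 2.14 to 3.4 CPM (median 2.9) in the other TF libraries and 3.04 CPM in the control. AATBC had 17 counts in the EGR1 library and 0 in the control library, and IPO9-AS1 had 1.31 CPM in the EGR1 library, against 0.465 to 0.84 CPM (median 0.504) in the other TF libraries and 0.489 CPM in the control. The excess of IPO9-AS1 over the E2F4 library was within counting error. A lncRNA without a symbol, CATG00000057961.1 at chr22:47538261-47540380, + strand, was chosen after its values were seen. It had 103 counts in the EGR1 library and 0 in each of the 8 others and was at least 39.4-fold higher than the control floor. Of the lncRNA falls below the range, B4GAT1-DT, MAP4K1-AS1 and LINC01033 were at 0.812, 0.499 and 1.31 CPM in the EGR1 library, against 1.79, 1.2 and 2.88 CPM in the control library. RMRP, a conserved lncRNA of mitochondrial and ribosomal RNA processing, had 1.12 CPM in the EGR1 library, against 0.784 to 3.26 CPM (median 1.19) in the other TF libraries and 4.02 CPM in the control, so it fell but lay inside the range. Of the 49 lncRNAs above the range, 1 had a nearest protein-coding start within 50 kb that belonged to a gene that rose (2.04%), SMIM24, against 0.758% of all lncRNAs measured. SMIM24 overlaps this lncRNA on the opposite strand, so the counts of both are uncertain.

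GCGNGGGCG was found on either strand in 19 of 117 windows of protein-coding genes that rose and lay above the range (16.2%), against 18.9% of 12650 windows of all protein-coding genes measured and 14.3% of 19102 windows in the annotation. Its form GCGGGGGCG was in 10.3% of the windows of these genes, against 10.7% of all measured, and its form GCGTGGGCG in 0 of 117, against 1.47%. The median GC content was 66.3% in the windows of the rising genes and 67.0% in those of all measured genes. Genes that rose inside the range had a match in 27.8% of 151 windows, at a median GC content of 72.0%. In the 37 genes above the range at 5 CPM or more the share was 27.0%, against 19.4% of all genes at that level, with median GC contents of 72.3% and 67.3%. Over all levels, in windows of 70% GC or more the genes above the range had a match in 23.8% (10 of 42), against 35.0% of all measured, and in windows of 60 to 70% GC in 14.8% (8 of 54), against 11.2%. Of the 14 leading genes, 3 had a match. No match in this window says nothing about sites elsewhere.

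Close to the thresholds, RUNDC3A had 3.5 CPM in the EGR1 library, against 1.29 to 7.76 CPM (median 2.56) in the other TF libraries and 1.69 CPM in the control, and just passed the 2-fold rule. IER5L had 19.1 CPM in the EGR1 library, against 10.1 to 23 CPM (median 13) in the other TF libraries and 9.51 CPM in the control, and just missed it. CPEB1 had 1.37 CPM in the EGR1 library, against 0.785 to 1.37 CPM (median 1.06) in the other TF libraries and 0.544 CPM in the control, and lay just above the range, whereas ZNF880 had 1.12 CPM in the EGR1 library, against 0.0572 to 1.14 CPM (median 0.76) in the other TF libraries and 0.489 CPM in the control, and lay just inside it.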

How the data were processed

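The sources name FastQC 0.11.2 for read checks, STAR 2.6.0c for mapping to GRCh37 and featureCounts 1.6.3 for counting uniquely mapped reads per gene. The deposited table holds the authors' raw counts for 57163 genes and 9 libraries, with no normalization, plus position and length columns. Symbols for 25134 genes came from GENCODE v44lift37, and 670 of 672 names in the gene lists were matched.

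TMM factors came from all 9 libraries (edgeR 4.0.16 under R 4.3.3), and log2FC was computed with a prior count of 2. Changed meant at least 2-fold with 1 CPM in the higher library. EGR1 was left out, and the 8 inserted TFs were also left out of the range rule. Ratios carry exact conditional binomial 95% intervals, and a count of 0 in the control was set to a floor of 3 counts for a lower bound. The intervals cover counting error only, the floor leaves out counting error in the EGR1 library, and reads are not independent molecules. With 1 library per condition there was no replicate check, and no p-value is given. The steps were tested on simulated data.

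Genes were named by their excess over the nearest other library (prior count of 5), passing over those with no symbol. Among rises, 14 mRNAs and the leading 4 lncRNAs of each conservation class were taken, and among falls 6 mRNAs and 3 lncRNAs. Each list gave its changed members outside the range and its 2 largest log2FC, and 5 rises inside the range were added. The members and lists were chosen with earlier results of these data known, and the muscle and lymphocyte lists after values were seen. Alternatives were library totals, DESeq2 1.42.0 size factors, other folds, minimum levels and prior counts, a reference averaged over the other 7 TFs, and each library left out of the range. Some items are not reported here.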

Additional observations from a re-analysis of the deposited data

How the results depend on the processing

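Scaling by library totals or DESeq2 size factors kept the direction of all 87 named values and moved no count past 1.5 times. The 356 rises and 40 falls against the control became 3007 and 510 with no minimum level, 65 and 1 at 5 CPM, 785 and 180 at a 1.5-fold difference, and 145 and 83 against the average of the other TF libraries, and a prior count of 5 left 15 falls. Against that average, 135 of the 145 rises but only 7 of the 83 falls were among the 356 and 40. An edgeR exact test called 81 rises and 1 fall with an assumed biological coefficient of variation of 0.2, and 15 and 0 with 0.4. The 168 rises above and 20 falls below the range became 1559 and 160 with no minimum, 43 and 0 at 5 CPM, 298 and 81 at 1.5-fold, 97 and 7 with an excess of 1.5-fold, 70 and 1 with an excess of 2-fold (added after seeing the data), and 82 and 0 where the counting interval excluded 1. Falls numbered 8 with a prior count of 5 and 37 against the mean of the 7, and only 6 of these 37 were among the 20. Leaving out each library in turn gave 168 to 233 rises, the highest without NRF1, and 20 to 24 falls. The 1136 genes above and 1382 below the range, without the 2-fold rule, became 108 and 39 with an excess of 1.5-fold and 156 and 54 by the counting interval, 4722 lay above with no minimum, and leaving out each library gave 1214 to 1495 above and 1473 to 1902 below. The motif share of 16.2% was 27.0% at 5 CPM and 31.6% in windows of 500 bases on each side (chosen after seeing the data), where all genes measured gave 35.4%. Against the mean of the 7, HRH3 (-0.58), CACNG4 (-0.030), GADD45G (-0.061), HSPA6 (-1.84) and RUNDC3A (-0.11) turned negative on the log2 scale; the cause was not tested. No paired analysis was possible because each condition has 1 library. Genes under 1 CPM were not measured, and depth limits the genes near it.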

Other observations

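Other well-covered genes above the range, picked here after their values were seen, encoded ligands, transporters and secreted proteins. DLL1, a Notch ligand, had 86.5 CPM in the EGR1 library, against 15.1 to 24.7 CPM (median 21.6) in the 7 other TF libraries and 20.9 CPM in the control library, and JAG1, another Notch ligand, had 19.5 CPM in the EGR1 library, against 8.23 to 11.3 CPM (median 10.02) in the 7 other TF libraries and 8.97 CPM in the control library. SLC6A8, the creatine transporter, had 316 CPM in the EGR1 library, against 139.7 to 167 CPM (median 151) in the 7 other TF libraries and 149 CPM in the control library. ENTPD2, an ectonucleotidase that hydrolyses ATP outside the cell, had 12.6 CPM in the EGR1 library, against 0.801 to 2.65 CPM (median 1.95) in the 7 other TF libraries and 0.761 CPM in the control library. TIMP3, a matrix metalloproteinase inhibitor that lies within an intron of SYN3, had 114 CPM in the EGR1 library, against 42.5 to 56.7 CPM (median 46.1) in the 7 other TF libraries and 50.02 CPM in the control library. FSTL3, an activin-binding protein, had 26.8 CPM in the EGR1 library, against 9.06 to 15.8 CPM (median 12) in the 7 other TF libraries and 9.19 CPM in the control library. SLCO2A1, the prostaglandin transporter, had 11.9 CPM in the EGR1 library, against 2.56 to 3.97 CPM (median 2.84) in the 7 other TF libraries and 2.61 CPM in the control library.

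CEBPD, an acute-phase C/EBP transcription factor, also lay above the range, with 6.62 CPM in the EGR1 library, against 1.92 to 2.68 CPM (median 2.52) in the 7 other TF libraries and 2.01 CPM in the control library. The lncRNA ENSG00000261888.1 at chr17:81061205-81063860 had 100 counts in the EGR1 library, 2 to 12 in the 7 other TF libraries and 1 in the control library.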
